A study of Mus musculus with 6 samples.

Results

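Transcripts of 10 genes of the NF-κB system were measured in mouse muscle: the 5 subunit genes Nfkb1, Nfkb2, Rel, Rela and Relb, the inhibitor genes Nfkbia, Nfkbib and Nfkbie, the nuclear IκB family gene Bcl3, and Map3k14, which encodes the kinase NIK. The genes were chosen by symbol as components of the canonical and non-canonical pathways, and all 10 were found among the 24421 genes counted. Gastrocnemius/plantaris (GP) muscle was taken from male mice (strain background given as B6C3F1 in the labels, with founders bred to C57BL/6N) aged 5 months, 3 months after tamoxifen, for bulk RNA-Seq, to ask how loss of Net39 in adult muscle changes transcription. Every mouse carried Net39 fl/fl alleles and every mouse received tamoxifen. By its label, the group Ctrl (3 mice) lacked Cre. By its label, the group cKO (3 mice) also carried HSA-CreERT2, a tamoxifen-activated Cre under the human skeletal actin promoter, which is active in skeletal muscle fibers and leaves the other cells of the tissue unrecombined. Net39 encodes a muscle-specific protein of the nuclear envelope.

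NF-κB proteins bind DNA as dimers. In the canonical pathway, receptors for TNF, IL-1 and microbial products activate the IKK complex, which marks the IκB proteins (IκBα, IκBβ and IκBε, from Nfkbia, Nfkbib and Nfkbie) for degradation and so frees dimers of p50 (from Nfkb1) with p65 (from Rela) or c-Rel (from Rel). In the non-canonical pathway, receptors such as the lymphotoxin β receptor, RANK and Fn14 stabilize NIK, and the p100 precursor made from Nfkb2 is processed to p52, the usual partner of RelB. Unprocessed p100 itself acts as an inhibitor. Nfkb2, Relb, Nfkbia and Nfkbie are textbook targets of NF-κB, and in skeletal muscle the pathway is known for its part in atrophy, in inflammation and in the response to injury.

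Counts per library summed to 33860001 to 38201728 in the Ctrl-labelled libraries and to 39191239 to 48839910 in cKO-labelled libraries. The targeted gene did not follow the labels. Net39, counted under its older symbol Ppapdc3, had 310, 321 and 217 counts in the Ctrl-labelled libraries and 5365, 4340 and 6080 in cKO-labelled libraries, a log2 fold change of 4.22 (SE 0.17). Reads over the floxed exon are not counted apart from the rest of the gene. Groups are therefore named by their labels throughout, and "higher in the Ctrl-labelled libraries" can be read equally as higher in the libraries with low Net39 counts. Muscle genes were abundant in every library. Summed in CPM (counts scaled to a common library size with edgeR's TMM factors), the 9 muscle fiber markers reached 100822 to 171557. Markers of other cells were present too. Of the 18 immune cell markers chosen, 17 were in the count tables and 9 passed the filter on low counts. The 17 summed to 133 to 157 CPM in the Ctrl-labelled libraries and to 70.6 to 95.7 CPM in cKO-labelled libraries. Of the 9 that passed the filter, 7 were lower in the cKO-labelled libraries, with log2 fold changes of -1.12 to -0.54 over the 9. The immune markers that did not pass, which included the lymphocyte genes Cd3e, Cd4, Cd79a and Ms4a1 and the neutrophil genes S100a8 and S100a9, reached at most 16 counts in any library. Endothelial markers summed to 377 to 391 against 338 to 374 CPM and fibro-adipogenic progenitor markers to 754 to 803 against 688 to 856 CPM. Of the 6 progenitor markers, Ly6a and Dpt were lower in the cKO-labelled libraries and the other 4 did not pass, with log2 fold changes of -0.31 for Cd34, -0.18 for Pdgfra, 0.20 for Dcn and 0.29 for Smoc2. The 3 satellite cell markers summed to 3.88 to 4.10 against 3.64 to 5.999 CPM.

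All 10 members passed the filter on low counts that left 14180 genes in the test. By edgeR's quasi-likelihood test 5 of the 10 passed an adjusted p of 0.05, and all 5 (Nfkb2, Nfkbie, Relb, Nfkbib and Rela) were lower in the cKO-labelled libraries. Among all genes tested 24.4% passed that threshold, 11.8% as higher in the Ctrl-labelled libraries and 12.6% as higher in cKO-labelled libraries. With a fold change of over 2 also required, Nfkb2 and Nfkbie were called, 2 of 10 members, where 6.05% of all genes tested were called (3.92% higher in the Ctrl-labelled libraries and 2.13% higher in cKO-labelled libraries). The median log2 fold change of the members was -0.50, beside -0.015 for all genes tested, and 9 of the 10 members had a negative value. The CPM ranges of the labelled groups did not overlap for 7 of the 10 members, while they did not overlap for 43.9% of all genes tested.

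**Figure D1:**
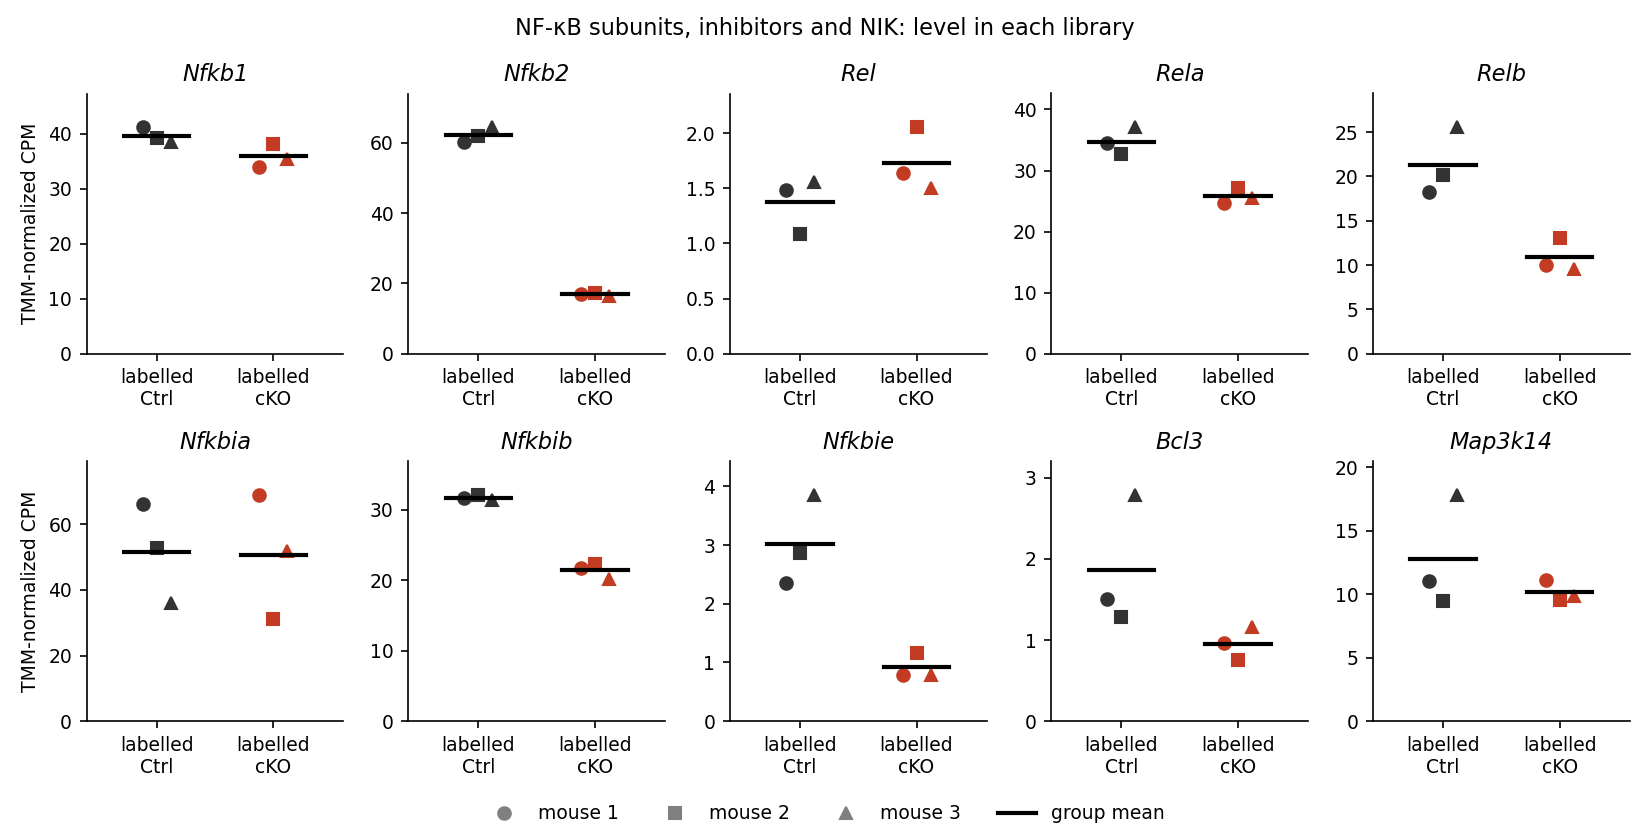
Level of each of the 10 genes in each library, in TMM-normalized CPM (linear axes that start at 0). Points are mice (circle, square and triangle for mice 1, 2 and 3 of a group) and bars are group means; Nfkb2 lies at 60.3 to 64.4 CPM in the Ctrl-labelled libraries and at 16.4 to 17.2 CPM in cKO-labelled libraries, while the groups overlap for Rel, Nfkbia and Map3k14.

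**Figure D2:**
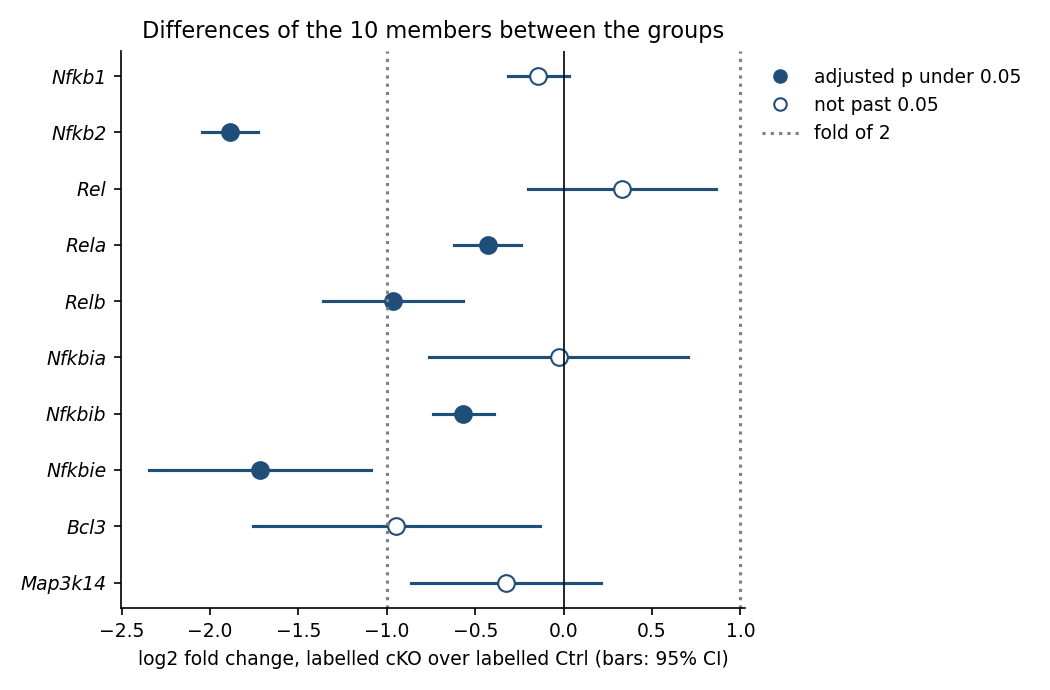
Log2 fold change (labelled cKO over labelled Ctrl) of each of the 10 genes, with 95% confidence intervals from edgeR's quasi-likelihood test. Filled points have an adjusted p under 0.05; Nfkb2 at -1.89 and Nfkbie at -1.72 lie beyond a fold of 2, and the interval of Nfkbia, -0.76 to 0.70, spans 0.

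Nfkb2, the gene of the p100 precursor and of p52, differed most between the labelled groups. The gene is on the plus strand of chromosome 19 (GRCm38, chr19:46304320-46312385). It was measured at 60.3, 62.1 and 64.4 CPM in the 3 Ctrl-labelled libraries and at 16.8, 17.2 and 16.4 CPM in the 3 labelled cKO. The values within a group were close, the highest being 1.07 times the lowest in the Ctrl-labelled libraries and 1.05 times in cKO-labelled libraries. The level was 62.3 ± 2.02 CPM (SD, n = 3) against 16.8 ± 0.407 CPM, a log2 fold change of -1.89 (95% CI -2.05 to -1.73), or 3.70 times as much in the Ctrl-labelled libraries. Its adjusted p was 0.000161, and its unadjusted p was the smallest of the 14180 genes tested. With any 1 library left out the log2 fold change was between -1.92 and -1.86.

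The gene Psd, which encodes an exchange factor for the small GTPase Arf6, lies on the opposite strand (chr19:46312087-46327156) and its end overlaps the end of Nfkb2. The genes share 299 of the 4584 exon bases annotated for Nfkb2. In all, 830 of these bases are shared with another gene, the rest of them with the noncoding AC114539.1 on the opposite strand, which was not analysed here. Psd had 379, 388 and 403 counts in the Ctrl-labelled libraries and 63, 92 and 83 in cKO-labelled libraries (log2 fold change -2.31, adjusted p = 0.000627). Its counts were far below those of Nfkb2, which were 2363, 2572 and 2354 against 597, 664 and 723. Whether the counting used strand is not given in the sources used here, so reads from the shared bases cannot be assigned to either gene, and the part of such reads in the Nfkb2 counts was not tested.

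Nfkb2 is itself a gene with κB motifs near its start, and the bases around these are shown because this member carries the largest difference. RefSeq (GRCm38.p6) gives it 3 promoters. Each holds matches to the κB consensus, which was searched on both strands in the 250 bases before the start as 3 Gs, a purine, any 2 bases, 2 pyrimidines and 2 Cs. Capitals mark the matched bases, with up to 5 bases on each side, 5′ to 3′ on the plus strand. The first 2 lie upstream of the first RefSeq start (chr19:46304693-46304713 and chr19:46304721-46304736) and the others upstream of the second (chr19:46305454-46305473) and the third (chr19:46305700-46305719). The first stretch holds overlapping matches, 1 of which reads the same on both strands.
Nfkb2 promoter 1, bases 44 to 24 before the start: gtcacGGGAATTCCCCccctc
Nfkb2 promoter 1, bases 16 to 1 before the start: cgaaaGGGGCTTTCCc
Nfkb2 promoter 2, bases 241 to 222 before the start: cggcaGGAATGTCCCcacaa
Nfkb2 promoter 3, bases 230 to 211 before the start: ttttcGGGACTTTCCtaagc
The windows lie inside the span that GENCODE annotates for Nfkb2, so these bases can also lie within transcripts that start further upstream. A match to the consensus is a description of the sequence and not evidence of binding.

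Relb, the partner of p52, was lower in the cKO-labelled libraries too. It lies on the minus strand of chromosome 7 (chr7:19606217-19629438) and was measured at 18.2, 20.2 and 25.5 CPM in the Ctrl-labelled libraries and at 10.05, 13.1 and 9.59 CPM in cKO-labelled libraries. The lowest library labelled Ctrl was above the highest labelled cKO. The means were 21.3 ± 3.79 and 10.9 ± 1.90 CPM (SD, n = 3 each), with a log2 fold change of -0.96 (SE 0.17, adjusted p = 0.00918), just under a fold of 2.

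Rela, which encodes the transactivating subunit p65, showed a smaller difference of the same sign. It is on the plus strand of chromosome 19 (chr19:5637483-5648130), with levels of 34.6, 32.6 and 37.1 CPM in the Ctrl-labelled libraries and of 24.7, 27.2 and 25.5 CPM in cKO-labelled libraries, without overlap. The log2 fold change was -0.43 (SE 0.08, adjusted p = 0.0113).

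Nfkb1, the gene of p105 and p50, did not pass the threshold. It lies on the minus strand of chromosome 3 (chr3:135584655-135691547) and had 41.2, 39.3 and 38.6 CPM in the Ctrl-labelled libraries against 34.1, 38.2 and 35.5 CPM in cKO-labelled libraries. The groups did not overlap, but they lay next to each other: the log2 fold change was -0.14 (95% CI -0.32 to 0.03, adjusted p = 0.192). Scaled by total counts instead of TMM factors it was -0.40 (adjusted p = 0.0277). That scaling moved the median of all genes tested to -0.27, and relative to the median Nfkb1 was at -0.13 under either scaling.

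Rel, the gene of c-Rel, known mainly from lymphocytes and myeloid cells, was the least abundant subunit transcript. On the minus strand of chromosome 11 (chr11:23736847-23770970), between 45 and 79 reads were counted per library, with 1.48, 1.09 and 1.56 CPM in the Ctrl-labelled libraries and 1.64, 2.05 and 1.5 CPM in cKO-labelled libraries. The groups overlapped and the log2 fold change was 0.33 (SE 0.23, adjusted p = 0.321). Rel was the member with the positive value, and at this depth its 95% confidence interval of -0.20 to 0.86 left the sign undetermined.

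Differences between subunits in one library were read from levels per length of the principal transcript (CPM per kb). Summed over the 5 subunits, the level was 52.1 ± 2.77 CPM per kb in the Ctrl-labelled libraries and 28.7 ± 1.93 CPM per kb in cKO-labelled libraries (SD, n = 3 each). The make-up of that sum differed as well. Nfkb2 held 38.1, 39.1 and 37.1% of it in the Ctrl-labelled libraries and 19.5, 17.7 and 18.8% in cKO-labelled libraries. It was thus the most abundant subunit transcript in every library labelled Ctrl. Rela took that place in every library labelled cKO, with 33.1 ± 0.741% beside 24.6 ± 0.766% in the Ctrl-labelled libraries. Nfkb1 held 18.6 ± 1.48% in the Ctrl-labelled libraries and 30.4 ± 0.581% in cKO-labelled libraries. The share of Relb was 18.4 ± 2.30% against 17.1 ± 1.81%, and Rel stayed under 1% throughout. The non-canonical subunits Nfkb2 and Relb together held 56.5 ± 1.82% of the subunit transcripts in the Ctrl-labelled libraries and 35.8 ± 1.21% in cKO-labelled libraries. With the length of all annotated exons in place of the principal transcript, an alternative chosen after seeing the data, that pair held 56.3% and 35.8%, while Nfkb2 held 40.2% and 20.3% and Nfkb1 9.75% and 16.5%. Shares of a sum are tied to each other, so a smaller share of Nfkb2 raises the other shares without a change in their levels.

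**Figure D3:**
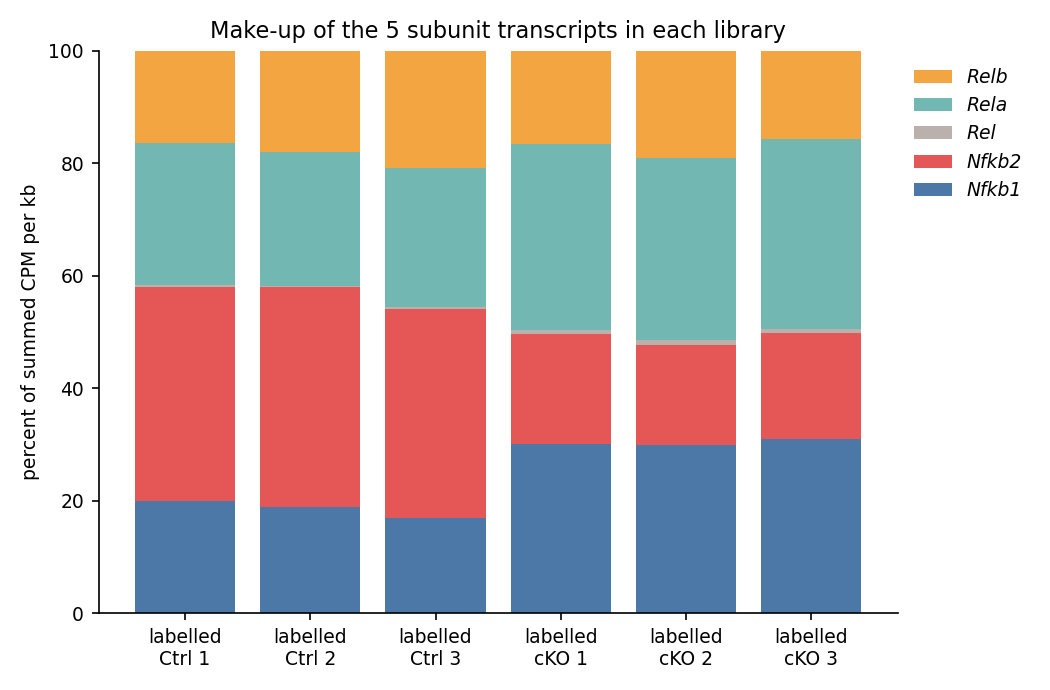
Percent of the summed CPM per kb of the 5 NF-κB subunit transcripts held by each, in each of the 6 libraries (stacked bars, each summing to 100%). Nfkb2 holds 37.1 to 39.1% in the Ctrl-labelled libraries and 17.7 to 19.5% in cKO-labelled libraries.

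Among the inhibitors, Nfkbie and Nfkbib were lower in the cKO-labelled libraries and Nfkbia did not pass the test. Nfkbie encodes IκBε and lies on the plus strand of chromosome 17 (chr17:45555703-45563169). Its transcript was scarce, with 92, 119 and 141 counts in the Ctrl-labelled libraries and 28, 45 and 35 in cKO-labelled libraries. In CPM these were 2.35, 2.87 and 3.86 against 0.790, 1.17 and 0.795. Every library labelled Ctrl was at least 2 CPM and every library labelled cKO was close to 1 CPM or below. The log2 fold change was -1.72 (SE 0.27, adjusted p = 0.0066), or 3.29 times as much in the Ctrl-labelled libraries.

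Nfkbib, which encodes IκBβ, lies on the minus strand of chromosome 7 (chr7:28758251-28767512). It had 31.7, 32.1 and 31.4 CPM in the Ctrl-labelled libraries and 21.8, 22.3 and 20.1 CPM in cKO-labelled libraries. The values within a group were nearly level, and the difference, a log2 fold change of -0.57 (SE 0.07, adjusted p = 0.00394), was well outside them. Of its 2169 exon bases, 356 are shared with genes on the opposite strand, 42 of them with Sirt2 and the others with Ccer2, which was not analysed here. Sirt2, a deacetylase gene, had 3313 to 3996 counts in the Ctrl-labelled libraries and 3670 to 4168 in cKO-labelled libraries (log2 fold change 0.08, adjusted p = 0.447, and -0.17 when scaled by total counts), and its groups overlapped.

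Nfkbia, the gene of IκBα, lies on the minus strand of chromosome 12 (chr12:55489410-55492647). It was the most variable of the abundant members, at 66.2, 52.7 and 36.0 CPM in the Ctrl-labelled libraries and 68.9, 31.1 and 51.97 CPM in cKO-labelled libraries. Its highest and its lowest value both lay in the group labelled cKO, and the highest was 2.22 times the lowest there. The means were 51.7 ± 15.1 and 50.7 ± 19.0 CPM, with a log2 fold change of -0.03 (95% CI -0.76 to 0.70, adjusted p = 0.958). The interval takes in differences of well over a fold of 1.5 in either direction, so a difference of that size was not detectable with these mice.

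The promoters of Nfkbie and Nfkbia are shown because both genes are textbook NF-κB targets with a κB match before the start, and of the inhibitors Nfkbie had the largest difference and Nfkbia the smallest. Each is the 250 bases before the RefSeq start, 5′ to 3′ on the strand of the gene, with the match in capitals. That of Nfkbie is on the plus strand at chr17:45555450-45555699 and its match lies 106 to 97 bases before the start. That of Nfkbia is on the minus strand at chr12:55492648-55492897 and its match lies 29 to 20 bases before the start.
Nfkbie promoter: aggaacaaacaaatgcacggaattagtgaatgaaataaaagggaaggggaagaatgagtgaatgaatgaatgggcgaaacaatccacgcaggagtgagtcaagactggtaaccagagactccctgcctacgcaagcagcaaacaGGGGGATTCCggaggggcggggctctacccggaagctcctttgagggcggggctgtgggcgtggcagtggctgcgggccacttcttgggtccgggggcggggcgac
Nfkbia promoter: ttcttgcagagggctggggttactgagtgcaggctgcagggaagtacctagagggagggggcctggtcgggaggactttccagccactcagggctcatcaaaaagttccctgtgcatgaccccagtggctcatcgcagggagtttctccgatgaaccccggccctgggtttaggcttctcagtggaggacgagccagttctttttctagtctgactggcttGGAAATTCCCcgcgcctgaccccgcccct
Of the 10 members, 8 had a promoter in the RefSeq table, and those of Nfkb1 and Relb were not analysed here. Matches to the κB consensus were found for 4 of these 8 members: Nfkb2, Rel, Nfkbia and Nfkbie. Of all genes in the table, 8.23% had a match. By promoter, matches were in 6 of the 10 promoters of the members, 3 of which belong to Nfkb2, and in 7.25% of all 32851 mouse promoters in the table. More than 1 match was held by the first Nfkb2 promoter and the Rel promoter, as by 1.03% of all promoters. Nfkb2 and Nfkbie, the members called with a fold over 2, both held matches. Rela and Nfkbib, which were lower in the cKO-labelled libraries by less, held none. Of the members that did not pass the test, Rel and Nfkbia held matches and Map3k14 and Bcl3 held none.

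Bcl3 encodes a nuclear member of the IκB family that binds p50 and p52 dimers on DNA. It lies on the minus strand of chromosome 7 (chr7:19808462-19822770), shares 161 of its 2475 exon bases with Gm16175 on the opposite strand, and had 29 to 102 reads per library. Its levels were 1.51, 1.28 and 2.79 CPM in the Ctrl-labelled libraries and 0.960, 0.753 and 1.16 CPM in cKO-labelled libraries. The groups did not overlap, but the third library labelled Ctrl was 2.18 times the lowest of its group. The log2 fold change of -0.95 (SE 0.35) did not pass the threshold (adjusted p = 0.0881). Scaled by total counts it was -1.21 (adjusted p = 0.0325), or -0.93 and -0.94 relative to the median of all genes under the TMM and the total count scaling, and with any 1 library left out it lay between -1.16 and -0.53.

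Map3k14 encodes NIK, the kinase on which p100 processing depends, and NIK activity is governed chiefly by protein turnover. The gene is on the minus strand of chromosome 11 (chr11:103219762-103267472) and shares 135 of its 6550 exon bases with 1700028N14Rik on the same strand. Its levels were 11.03, 9.44 and 17.8 CPM in the Ctrl-labelled libraries and 11.1, 9.56 and 9.86 CPM in cKO-labelled libraries. All values but that of the third library labelled Ctrl lay between 9.44 and 11.1 CPM. The log2 fold change was -0.33 (SE 0.23, adjusted p = 0.331), and without that library it was -0.01 (adjusted p = 0.969). The third library labelled Ctrl was thus the highest of all 6 for Map3k14 and Bcl3, and also for Nfkb2, Rela, Relb and Nfkbie, while it was the lowest of its group for Nfkb1, Nfkbia and Nfkbib.

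By level per length of the principal transcript, the order of the 10 transcripts also differed between the labelled groups. In the Ctrl-labelled libraries it ran from Nfkbia (32.7 CPM per kb) through Nfkb2 (19.8), Nfkbib (15.4), Rela (12.8), Nfkb1 and Relb (9.64 each), Map3k14 (3.00), Nfkbie (1.24) and Bcl3 (1.00) to Rel (0.184). Neighbors in that order did not overlap, except Nfkb1 with Relb and Nfkbie with Bcl3. In the cKO-labelled libraries, Nfkb2 stood in the fifth place at 5.36 CPM per kb, behind Nfkbia (32.1), Nfkbib (10.4), Rela (9.50) and Nfkb1 (8.72) and beside Relb (4.94). There the ranges of Nfkbib and Rela, Rela and Nfkb1, Nfkb2 and Relb, and Bcl3 and Nfkbie overlapped. The order depends on the length used. Per length of all annotated exons, Nfkbib (14.6 CPM per kb) stood above Nfkb2 (13.6) and Relb (5.48) above Nfkb1 (3.29) in the Ctrl-labelled libraries, without overlap, and Nfkb2 (3.67) stood above Nfkb1 (2.98) in the cKO-labelled libraries, in the fourth place. With either length Nfkb2 was above Rela in the Ctrl-labelled libraries and below Rela in the cKO-labelled libraries.

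Ratios of counts within a library do not depend on the scaling between libraries, and 6 pairs were compared. Nfkb2 was counted 1.46, 1.58 and 1.67 times as often as Nfkb1 in the Ctrl-labelled libraries and 0.495, 0.451 and 0.463 times as often in cKO-labelled libraries. The order of the 2 precursor transcripts by counts was therefore opposite in the groups, with a difference of -1.74 in the log2 ratio. Relb over Rela was 0.526, 0.618 and 0.689 against 0.407, 0.481 and 0.376, a difference of -0.53. For both pairs the groups did not overlap and the exact two-sided permutation test gave p = 0.1, the smallest that 3 against 3 libraries allow (0.3 adjusted over the 6 pairs), so this test cannot take a ratio past 0.05 at this number of libraries. The groups overlapped for the other ratios. The log2 ratios differed by -1.64 for Nfkbie over Nfkbia and by -0.74 for Bcl3 over Nfkb1 (exact p = 0.2 each, adjusted 0.3). They differed by 0.37 for Nfkbia over Rela (exact p = 0.4, adjusted 0.48) and by 0.28 for Map3k14 over Traf3 (exact p = 0.5, adjusted 0.5). With 1 library left out, the difference stayed between -1.79 and -1.70 for Nfkb2 over Nfkb1 and between -0.64 and -0.44 for Relb over Rela. It ranged more widely for the others, from -2.14 to -1.22 for Nfkbie over Nfkbia, -0.96 to -0.39 for Bcl3 over Nfkb1, 0.081 to 0.72 for Nfkbia over Rela and 0.067 to 0.57 for Map3k14 over Traf3. Nfkbia over Rela was at 0.081 without the first cKO-labelled library, 0.086 without the third Ctrl-labelled, 0.57 without the first Ctrl-labelled and 0.72 without the second cKO-labelled library. Bcl3 over Nfkb1 was at -0.39 and Map3k14 over Traf3 at 0.57 without the third Ctrl-labelled library, and the latter was at 0.067 without the second.

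**Figure D4:**
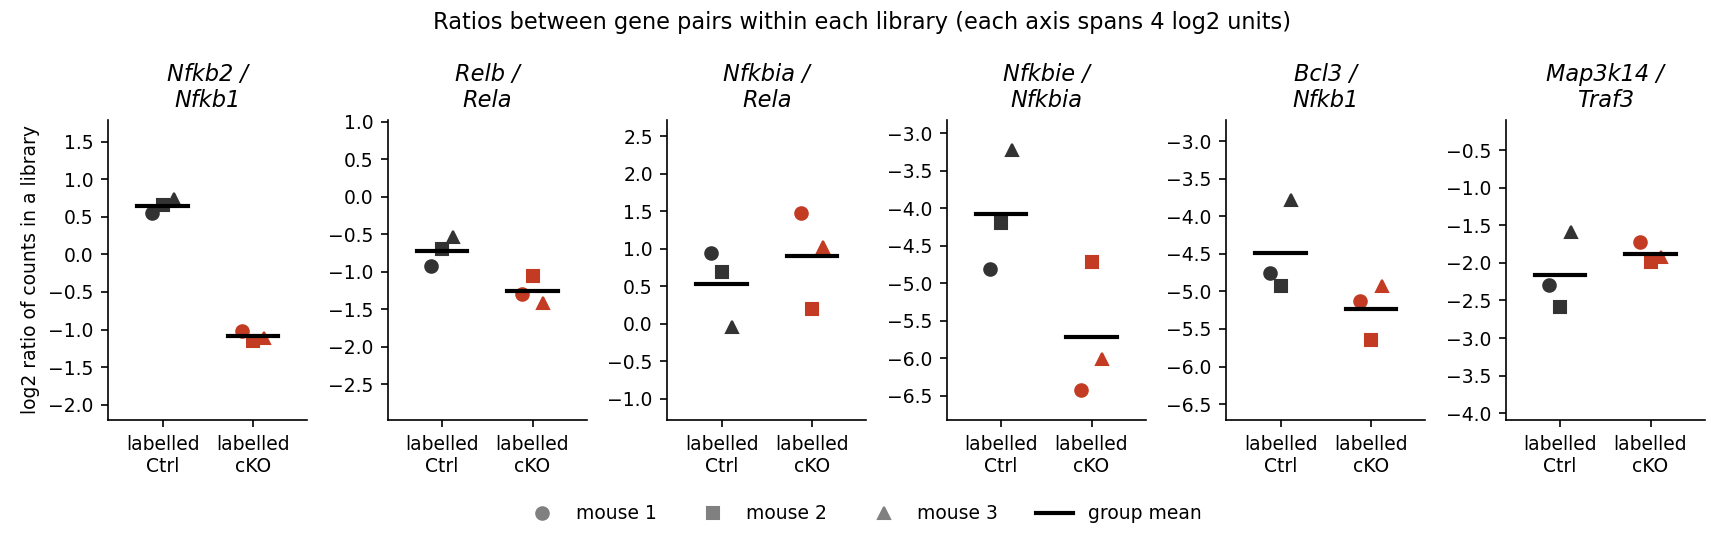
Log2 ratio of counts of 6 gene pairs within each library (points, mice; bars, group means; each axis spans 4 log2 units). For Nfkb2 over Nfkb1 the groups are 1.74 log2 units apart, with Ctrl-labelled libraries above 0 and cKO-labelled libraries below 0.

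The other genes of the pathway were read by role from lists of ligands and receptors, kinases, adaptors and targets. Of 19 receptors and ligands, 11 passed the filter on low counts, 5 were lower in the cKO-labelled libraries and the other 6 did not pass, where 11.8% of all genes tested passed as lower, with a median log2 fold change of -0.52. The toll-like receptor genes showed the largest differences. Tlr4, the receptor for endotoxin, had 13.7, 8.76 and 16.3 CPM in the Ctrl-labelled libraries against 3.05, 3.40 and 2.05 CPM in cKO-labelled libraries (log2 fold change -2.19, adjusted p = 0.00369). Tlr2, which recognizes bacterial lipopeptides, was at 4.81 ± 2.51 against 1.27 ± 0.217 CPM (-1.91, adjusted p = 0.0143). Tnfrsf12a, the gene of Fn14, which feeds both pathways and is found on muscle fibers, had 39.5, 39.4 and 60.6 CPM in the Ctrl-labelled libraries and 21.2, 22.5 and 13.2 CPM in cKO-labelled libraries (-1.29, adjusted p = 0.0118). Tnfrsf11a (RANK) had a log2 fold change of -0.72 (adjusted p = 0.0411) and Tnfrsf1b (TNF receptor 2) of -0.52 (adjusted p = 0.034). Of the genes on this list, 4 had 3 or fewer counts in every library.

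Among 16 kinases and their partners, all tested, 3 were lower and 2 higher in the cKO-labelled libraries (median -0.21), beside 11.8% lower and 12.6% higher of all genes tested. Of the IKK subunit genes, Chuk (-0.41, adjusted p = 0.0268) and Ikbkb (-0.29, adjusted p = 0.0264) were lower and Ikbkg (-0.04, adjusted p = 0.793) did not pass. Irak1 (-0.34, adjusted p = 0.027), a kinase of the IL-1 and toll-like receptor pathway, was lower too. Tab2, an adaptor of the kinase TAK1, was higher, with 106, 118 and 134 CPM in the Ctrl-labelled libraries and 264, 238 and 251 CPM in cKO-labelled libraries (1.07, adjusted p = 0.00195). Its paralog Tab3 was also higher in the cKO-labelled libraries (0.56, adjusted p = 0.024), but at 0.31 (adjusted p = 0.163) when scaled by total counts.

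Of 26 adaptors and ubiquitin regulators, all tested, 6 were lower and 2 higher in the cKO-labelled libraries (median -0.11), again beside 11.8% and 12.6% of all genes tested. Traf1, itself a textbook NF-κB target, was at 1.40 ± 0.164 against 0.548 ± 0.0743 CPM (-1.34, adjusted p = 0.00849). Otulin, a deubiquitinase of linear chains, was at 39.0 ± 3.58 against 16.5 ± 2.18 CPM (-1.24, adjusted p = 0.00194). Traf3, the adaptor that leads NIK to degradation, had 54.1, 56.9 and 53.6 CPM in the Ctrl-labelled libraries and 36.5, 37.9 and 37.5 CPM in cKO-labelled libraries (-0.56, adjusted p = 0.00316). Tnip2, a partner of A20 (-0.77, adjusted p = 0.00369), Pdlim2, a ubiquitin ligase for nuclear p65 (-0.76, adjusted p = 0.0132), and Card10, a scaffold for IKK activation (-0.36, adjusted p = 0.0416), were lower too. Otud7b, a deubiquitinase that acts on TRAF3 (0.32, adjusted p = 0.0299), and Traf6, an E3 ligase of the IL-1 and toll-like receptor pathway (0.31, adjusted p = 0.042), were higher. Scaled by total counts, Otud7b was at 0.069 (adjusted p = 0.599) and Traf6 at 0.056 (adjusted p = 0.693). The inhibitor-like genes Nfkbid and Nfkbiz were both tested and neither passed (median -0.21).

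Textbook targets outside the 10 genes mostly did not pass. Of 30 listed, 20 were tested, 3 were lower in the cKO-labelled libraries and the other 17 did not pass, with a median of -0.24 beside -0.015 for all genes tested. They were Cxcl10, a chemokine gene also driven by interferon (1.65 ± 0.860 against 0.329 ± 0.146 CPM, -2.29, adjusted p = 0.0229), Icam1, an adhesion molecule of endothelium and leukocytes (8.11 ± 0.820 against 4.19 ± 0.178 CPM, -0.95, adjusted p = 0.00391), and the macrophage growth factor gene Csf1 (-0.48, adjusted p = 0.0421). Traf1, Tnfaip3 and Birc3 were counted with the adaptors and are not among these 20. Of them, Traf1 passed (-1.34, adjusted p = 0.00849). The feedback regulator Tnfaip3 (A20) was at 0.02, which turned to -0.23 when scaled by total counts. Birc3, a ubiquitin ligase that acts on NIK, was at -0.49 (adjusted p = 0.0772). Birc3 was at -0.74 with total counts (adjusted p = 0.0249) and at -0.30 without the third Ctrl-labelled library (adjusted p = 0.149). The 3 of 20 targets are to be read beside the 11.8% of all genes tested that passed as lower. Of the 21 pathway genes named here as lower or higher, 8 (Tlr4, Tnfrsf12a, Tab2, Traf1, Traf3, Otulin, Tnip2 and Icam1) passed an adjusted p of 0.05 in every alternative that tested them. The other 13 kept their direction but did not pass in some alternatives, among them those that left out 1 library, where their adjusted p then lay between 0.0511 and 0.13. Each of the 6 libraries was needed for some of these genes, from 4 without the second cKO-labelled library to 12 without the first Ctrl-labelled, the first cKO-labelled or the third cKO-labelled library.

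**Figure D5:**
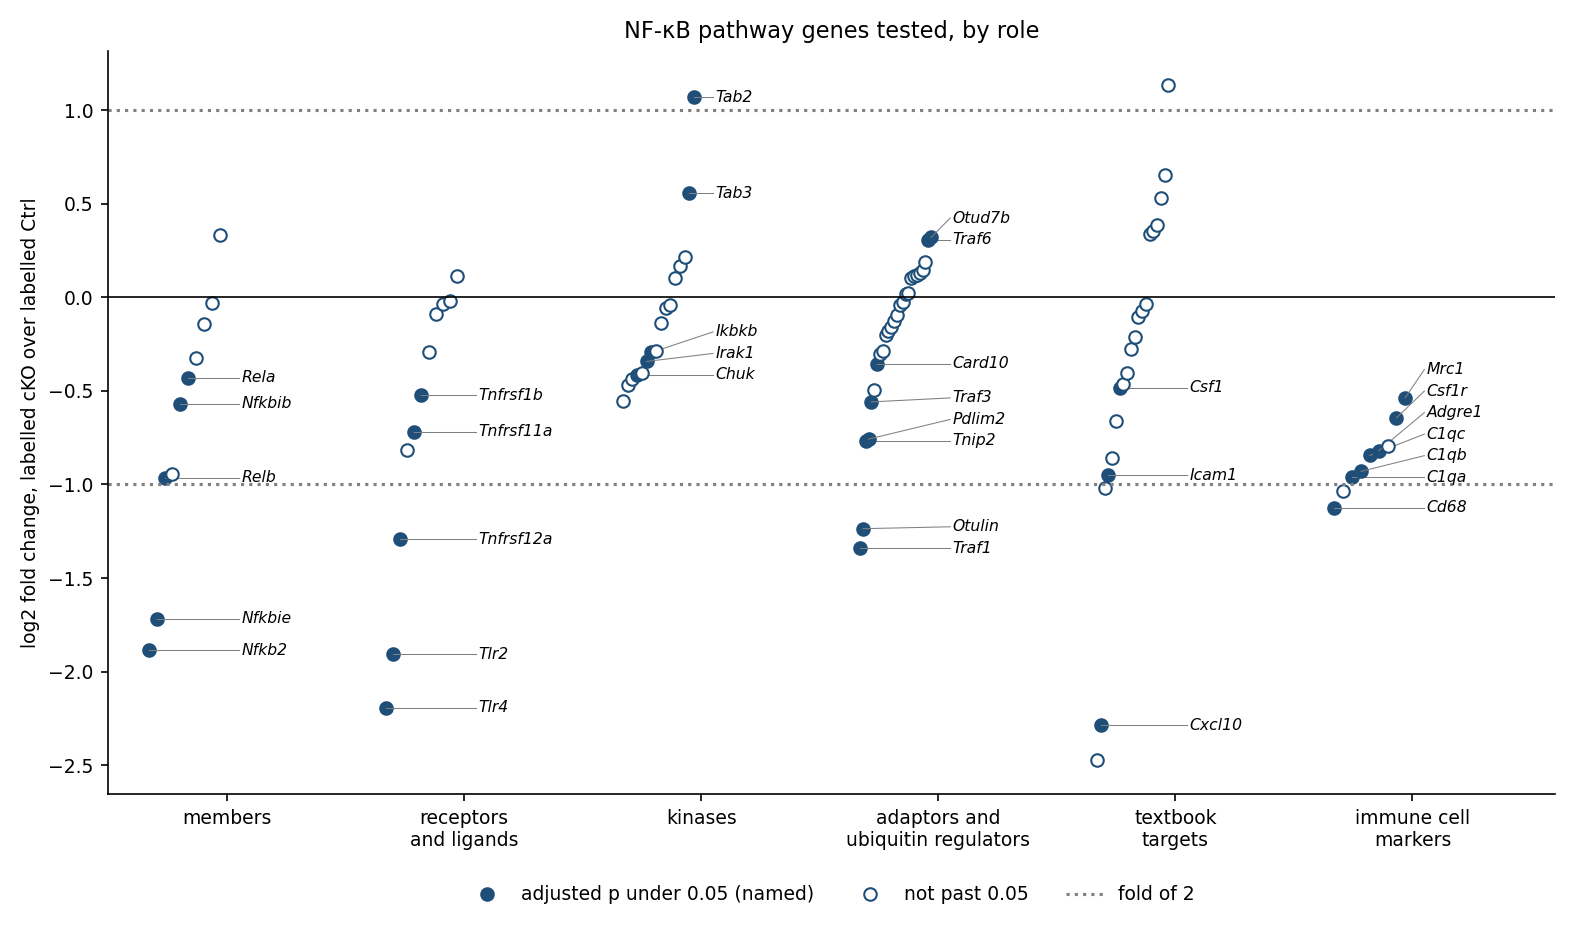
Log2 fold change (labelled cKO over labelled Ctrl) of the 10 members and of every tested gene on 4 lists of NF-κB pathway genes and on the list of immune cell markers, by role. Filled, named points have an adjusted p under 0.05; of these, Tab2, at 1.07, is beyond a fold of 2 above 0, while Nfkb2, Nfkbie, Tlr4, Tlr2, Tnfrsf12a, Otulin, Traf1, Cxcl10 and Cd68 lie beyond it below 0.

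Other cells and fiber types differed between the labelled groups at the same time. The complement gene C1qb, a macrophage marker, had 19.7, 19.3 and 20.9 CPM in the Ctrl-labelled libraries and 10.3, 10.1 and 11.1 CPM in cKO-labelled libraries, a log2 fold change of -0.93 (adjusted p = 0.00155), beside -1.89 for Nfkb2, -1.72 for Nfkbie and -0.96 for Relb. In bulk muscle, fewer cells of a type and less RNA per cell cannot be told apart, and the part of the immune cells in the results for the members was not tested. The slow myosin gene Myh7 had 3676, 1723 and 2219 CPM in the Ctrl-labelled libraries and 494, 974 and 75.3 CPM in cKO-labelled libraries (-2.30, adjusted p = 0.0742). It passed by DESeq2's Wald test (adjusted p = 0.0196), with total counts (-2.53, adjusted p = 0.0489), without the second cKO-labelled library (-3.18, adjusted p = 0.037) and without the third (-1.81, adjusted p = 0.0486). Myh4, the type IIb myosin gene, was higher in cKO-labelled libraries (1.46, adjusted p = 0.0213, up to 0.0764 with 1 library left out). The fast myosin genes Myh1, of type IIx fibers (-0.93, adjusted p = 0.0341), and Myh2, of type IIa fibers (-1.23, adjusted p = 0.0392), were lower in cKO-labelled libraries. Within the group labelled cKO, Myh7 varied 12.9-fold and Nfkb2 1.05-fold between mice. The part of fiber type in the results for the members was not tested.

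The genes whose log2 CPM followed Nfkb2 most closely over the 6 libraries, of 12352 genes with a mean of at least 1 CPM, were Atxn10 (Pearson's r = 0.998), Dupd1 (0.998), Nxn (0.998), Ttll1 (0.998) and Lgmn (0.997). All 5 were lower in the cKO-labelled libraries, with log2 fold changes of -1.42 for Dupd1, -0.95 for Lgmn, -0.93 for Nxn, -0.92 for Atxn10 and -0.54 for Ttll1. The 6 libraries fall into 2 groups, so such values also carry the difference between the groups. Bcl3 was followed most closely by Dtx3l (0.998), Oraov1 (0.996) and Srxn1 (0.995), and Map3k14 by Pick1 (0.990) and Pla2r1 (0.977). These are descriptions over 6 libraries, with no test.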

How the data were processed

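The deposited files hold whole-number counts of reads per gene for 6 libraries, 1 per mouse, and carry no normalization. According to the submitters' processing notes, the authors used FastQC 0.11.8, Trimmomatic 0.39, HISAT2 2.1.0 and featureCounts 1.6.2 with mm10 to make them; the annotation and the strand setting of the counting are not given in the sources used here. Total counts were 33860001 to 48839910 per library. There were 0 value columns left unused. Groups follow the sample labels, which Net39 counts contradict.

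The fit used edgeR 4.0.16 in R 4.3.3 (TMM scaling, filterByExpr, quasi-likelihood test, Benjamini-Hochberg adjustment over 14180 genes). Calls required a fold change over 2 together with an adjusted p below 0.05. CPM uses TMM factors. For single values and ratios (pseudocount 0.5), exact permutation tests were two-sided. P-values measure the spread between these mice. The members and lists were chosen with earlier results of these data known. Named are the 10 members, Net39, every tested gene of the pathway lists, the marker lists left out, with an adjusted p under 0.05 (at most 8 per list and direction), marker genes set beside a result, and the genes most alike to Nfkb2, Bcl3 and Map3k14 (log2 CPM, prior count 2); 1 gene that this rule selects is not reported here. Sirt2, Psd, Tnfaip3, Birc3, Ikbkg, Nfkbid and Nfkbiz were named after their values were seen. Positions and transcript lengths come from GENCODE M21 (GRCm38) and promoters from RefSeq (GRCm38.p6). Scripts were tested on simulated counts. Alternatives were DESeq2 1.42.0 (size factors and Wald test), total counts, other filters, no fold limit, the mouse number as a block, and each library left out in turn. No libraries repeated each other: replicates differed by more than counting error.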

Additional observations from a re-analysis of the deposited data

How the results depend on the processing

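In every alternative run, the 5 members that passed an adjusted p of 0.05 (Nfkb2, Nfkbie, Relb, Nfkbib and Rela) did so again and kept their direction. Of 120 recomputed log2 fold changes of members, 116 kept direction and side of the threshold. Nfkb1 and Bcl3 passed under total counts and under no other alternative. Nfkbia lay between -0.33 and 0.21 with 1 library left out and turned positive without labelled Ctrl library 1 (0.19) and without labelled cKO library 2 (0.21), and passed in neither; the cause was not tested. Tnfaip3, at 0.02, was at -0.23 with total counts and between -0.061 and 0.16 with 1 library left out, and Sirt2, at 0.08, was at -0.17 with total counts; neither passed. Members called with a fold over 2 as higher in Ctrl-labelled libraries numbered 2, 4 with total counts, 5 with no fold limit and 2 to 3 with 1 library left out. Genes called as higher in Ctrl-labelled libraries numbered 556, 1023 with total counts, 1668 with no fold limit and 398 to 685 with 1 library left out. Genes called as higher in cKO-labelled libraries numbered 302, 157 with total counts, 1786 with no fold limit and 172 to 387 with 1 library left out, 172 being the count without labelled Ctrl library 1. Total counts moved the median of all genes tested to -0.27, and relative to it Nfkb2 was at -1.87 under either scaling. DESeq2's Wald test called 586 and 341 genes. Same-numbered mice did not deviate together (correlations 0.084, -0.215 and -0.002), and not every library correlated best with its own number. No pairing by number was seen, but deviations taken within groups of 3 mice cannot exclude one. The fit with the mouse number as a replicate block called 448 and 236 genes and the same 2 members, 11 of the 21 pathway genes named passed in it, and its block turned no ratio of counts: that of Nfkb2 over Nfkb1 stayed at -1.74, where the exact sign-flip test over 3 pairs cannot go below 0.25. With 3 mice a group, p-values of single genes cannot fall below 0.1 in exact tests. Among the members, the intervals of Bcl3 and Nfkbia were the widest.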
